A study of Bombyx mori with 4 samples.

Results

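The array for RNAi of BmPHO, the silkworm gene of the DNA-binding Polycomb protein Pleiohomeotic, was read across every annotated gene. It is 1 of 4 arrays of the series. BmN4-SID1 cells, a Bombyx mori line derived from ovary that carries the worm double-stranded RNA channel SID1 and so takes up RNA from the culture medium, were given double-stranded RNA against BmPHO. The controls were the same cells given double-stranded RNA against EGFP, a fluorescent protein gene with no counterpart in the silkworm. Both were harvested on day 7, and RNA of 3 experiments was pooled before it was labeled, the knockdown with Cy5 and EGFP RNAi with Cy3. The other 3 arrays hold BmSCE, BmESC and BmSCM RNAi in the same layout and against EGFP RNAi, and wherever 3 values of the other knockdowns are given they stand in that order. No array has the dyes exchanged and no knockdown has another array, so no value below has a replicate check and no p-value was computed. Of 23229 gene probes on the array, the 7434 whose spot passed the deposited brightness flag on the BmPHO array are the measured genes described here, and 5489 of them carry a name. A name taken from another organism is a sequence match and may be approximate.

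Polycomb group proteins keep genes silent through cell divisions. In Drosophila, Pleiohomeotic is the Polycomb protein that reads DNA sequence itself, through zinc fingers, and with Sfmbt it recruits the chromatin-modifying complexes PRC1 and PRC2 to response elements. Sce is the ubiquitin ligase of PRC1, Esc a subunit of the PRC2 methyltransferase, and Scm a protein linked to both. Hox genes are the classical targets. No probe carries the name of BmPHO, so the fall of its own transcript could not be read from the array.

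The double-stranded RNA was made with the following primer pair of the study, shown because it defines the stretch of BmPHO that was targeted. The same pair served for RT-PCR of the transcript. The sense primer of the study's truncated construct for residues 231 to 388 begins with the same 20 bases, marked in capitals, so the targeted stretch starts where that construct starts.
BmPHO RNAi sense: atagcatgtccacacaaagg
BmPHO RNAi antisense: gcgttagtatgtgcgacttc
BmPHO residues 231 to 388, sense: ATAGCATGTCCACACAAAGGctgca
The RT-PCR pair of the study for phosphoenolpyruvate carboxykinase (PEPCK) is shown because this was the enzyme with the largest named rise on bright spots.
PEPCK sense: catgatagacggtgagtgggagagctcgga
PEPCK antisense: ctcctctttgaagtacttctcgatggcgtc

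BmPHO RNAi changed many genes in both directions. A gene was said to have risen or fallen when its log2 ratio, Cy5 over Cy3 after normalization within the array, passed 2.0-fold. By this rule 879 of the 7434 measured probes (11.8%) rose and 583 (7.84%) fell. Such probes made up 2.43% and 1.1% in BmSCE RNAi, 4.46% and 3.25% in BmESC RNAi and 9.46% and 6.29% in BmSCM RNAi. On the 6491 probes measured on all 4 arrays, 585 rose and 531 fell in BmPHO RNAi, against 144 and 70 in BmSCE, 292 and 291 in BmESC, and 502 and 496 in BmSCM RNAi. The log2 ratios had an SD of 0.83 over the BmPHO array. It was 0.45, 0.55 and 0.76 over those of BmSCE, BmESC and BmSCM RNAi, so the ratios of BmPHO RNAi were the most widely spread. The arrays also differed in their highest intensity, 73861 for BmPHO and 70100 for BmSCM against 65061 for BmSCE and 65017 for BmESC RNAi. The part of such differences between arrays in the spread was not tested. In bulk RNA of a culture, fewer cells that express a gene and less of its RNA in each cell cannot be told apart.

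The rises reached farther than the falls, and lay more often on dim spots. Among the risen probes, 156 passed 4-fold and 35 passed 8-fold, with a median log2 ratio of 1.40. Among the fallen probes, 43 passed 4-fold and 1 passed 8-fold, with a median of -1.27. Of the risen probes, 430 (48.9%) had a Cy3 intensity under 400, so they were measured only because they were bright in BmPHO RNAi. With both channels at least 400, 449 of 5912 probes rose (7.59%) and 389 fell (6.58%), beside 1.67% and 0.82% in BmSCE RNAi, 3.31% and 3.17% in BmESC RNAi and 6.64% and 6.38% in BmSCM RNAi. From the dimmest to the brightest 25% of the measured probes, the share risen went from 18.9% to 7.42% and the share fallen from 9.41% to 6.4%.

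**Figure D1:**
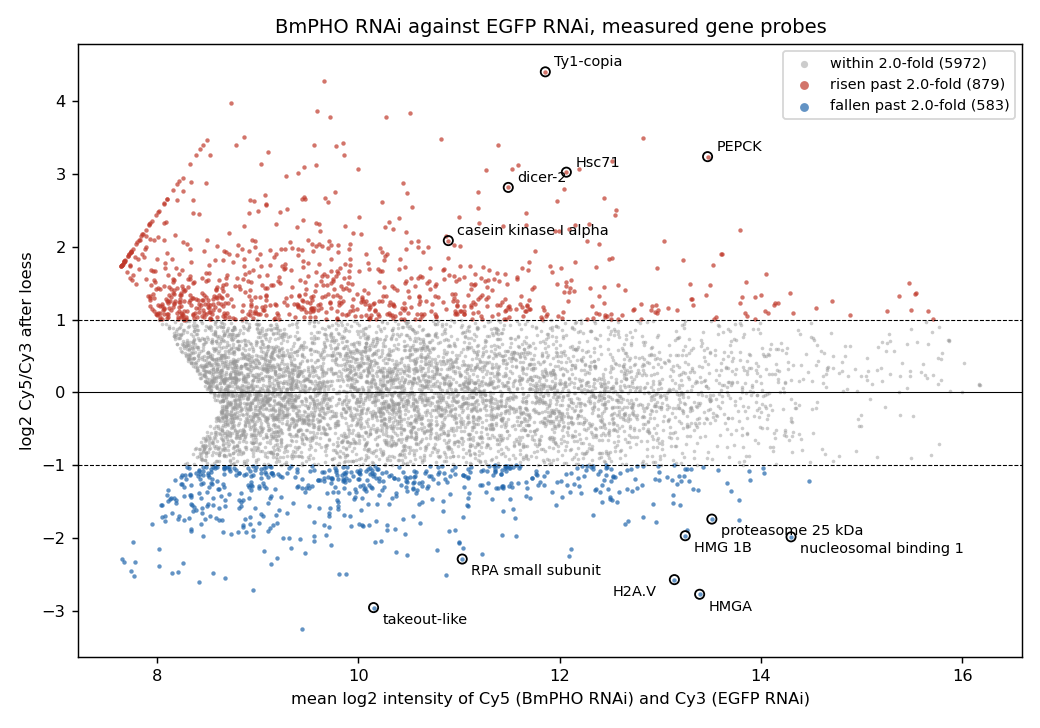
Log2 Cy5/Cy3 of the 7434 measured gene probes in BmPHO RNAi against EGFP RNAi (vertical axis) over the mean log2 intensity of both channels (horizontal axis). Red points rose past 2.0-fold (879), blue points fell past 2.0-fold (583), dashed lines mark 2.0-fold, and the circled proteins of chromatin packaging stand among the brightest of the fallen probes.

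The array's own controls gave the spread between copies of a probe on the slide. Each of 5 silkworm control probes printed 49 times had an SD of 0.09 to 0.11 over its spots. The log2 ratios of these controls were not all near 0 and ran from -1.10 to 0.43. The lowest (sw15061) lay past 2.0-fold, beside -0.70, -0.88 and -1.14 in the other knockdowns. Different probes of 1 gene differed more than copies of 1 probe did. For 26 genes measured by 2 probes each, the probes lay a median of 0.52 log2 units apart, and 6 genes (23.1%) had probes more than 1 apart. Of the 11 genes with a risen or fallen probe, 7 had both probes on the same side of 0 and 2 had both probes past 2.0-fold, and none had probes past 2.0-fold in opposite directions. Yeast spike-in RNAs, which do not come from the cells, gave log2 ratios of 1.96 to 5.39 on the BmPHO array (8 controls) and of 1.87 to 4.67 on the BmSCM array (8 controls). On the arrays of BmSCE and BmESC RNAi, 7 controls each gave -0.91 to 4.86 and -0.98 to 4.46. The spike-ins thus set the BmPHO and BmSCM arrays apart from the other 2, and their part in the counts and spread above was not tested.

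Genes for proteins that package DNA held the brightest of all fallen probes, those of histone H3.3 and of a nucleosomal binding protein, and several lay apart from the other knockdowns. The histone variant H2A.V (sw08118) replaces H2A in nucleosomes at many genes. Its intensity was 3659 in BmPHO RNAi and 22276 in EGFP RNAi, a log2 ratio of -2.57, beside -0.27, -0.42 and -0.44 in the other knockdowns. High mobility group protein A (sw14960), which binds the minor groove of AT-rich DNA, had 4052 in BmPHO RNAi and 28481 in EGFP RNAi. That gave -2.77, beside -1.04, -0.80 and -1.12 in the other knockdowns. HMGA was thus lower in every knockdown, and lowest in that of BmPHO.

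High mobility group protein 1B (sw06244), a box protein that bends DNA, had 4854 against 19501 in EGFP RNAi and a log2 ratio of -1.97, beside -0.33, -0.30 and -0.12 in the other knockdowns. A further probe of the same name (sw00052), chosen after its value was seen, had 13175 against 23021 and gave -0.74, beside -0.49, -0.88 and -0.11, so the probes of HMG 1B lay farther apart than the median pair of probes of a gene. A match to human nucleosomal binding protein 1 (sw11002), which unfolds chromatin fibers, had 9913 against 40981 and gave -1.98, beside -0.55, -0.08 and -0.19. Histone H3.3 (sw05668), the form of H3 laid down outside replication, had 14540 against 35571 and gave -1.22, beside -0.32, -0.40 and 0.16.

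Histones of other kinds separated BmPHO RNAi from the other knockdowns without falling past 2.0-fold. A histone H2A-like probe (sw10499), chosen after its value was seen, had 1740 against 2805 and gave -0.74, beside -0.05, 1.11 and 0.41 in the other knockdowns. A probe matched to a Paramecium histone H2B (sw18054) had 738 against 548 and gave 0.24, beside 1.79, 2.44 and 1.71. Its Cy5 intensity was 3347 to 7998 on the other arrays, so the rise seen there was not seen in BmPHO RNAi. Of the 4 measured histone probes 2 fell, and of the 4 measured HMG and nucleosome-binding probes 3 fell, beside 7.84% of all probes. The HMG list was added after values were seen. Its 3 fallen probes and H2A.V were already named for lying farthest below the other arrays, so the counts and medians of these lists are no separate evidence. The histone and HMG medians were -0.98 and -1.97, where the median of all measured probes was 0.05.

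Both channels were read on each array, and the EGFP channel of these probes was itself not constant. For H2A.V the Cy3 intensity was 16592 to 22276 over the 4 arrays and highest on that of BmPHO, while the Cy5 intensity was 11872 to 17322 in the other knockdowns. For HMGA the Cy3 intensity was 21109 to 28481 and the Cy5 intensity of the other knockdowns 10831 to 16026. The gap between the Cy5 intensity of BmPHO RNAi and the lowest of the other knockdowns was larger than the range of the Cy3 channel for H2A.V and smaller for HMGA. The Cy3 intensity was highest on the BmPHO array for all 5 of these fallen probes. Under 7 ways of normalizing the arrays, the log2 ratio of H2A.V in BmPHO RNAi stayed between -2.74 and -2.53, and it lay 1.80 to 2.14 log2 units below the lowest of the other arrays. For HMGA the same gap was 1.31 to 1.68, and for nucleosomal binding protein 1 it was 1.39 to 1.46.

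**Figure D2:**
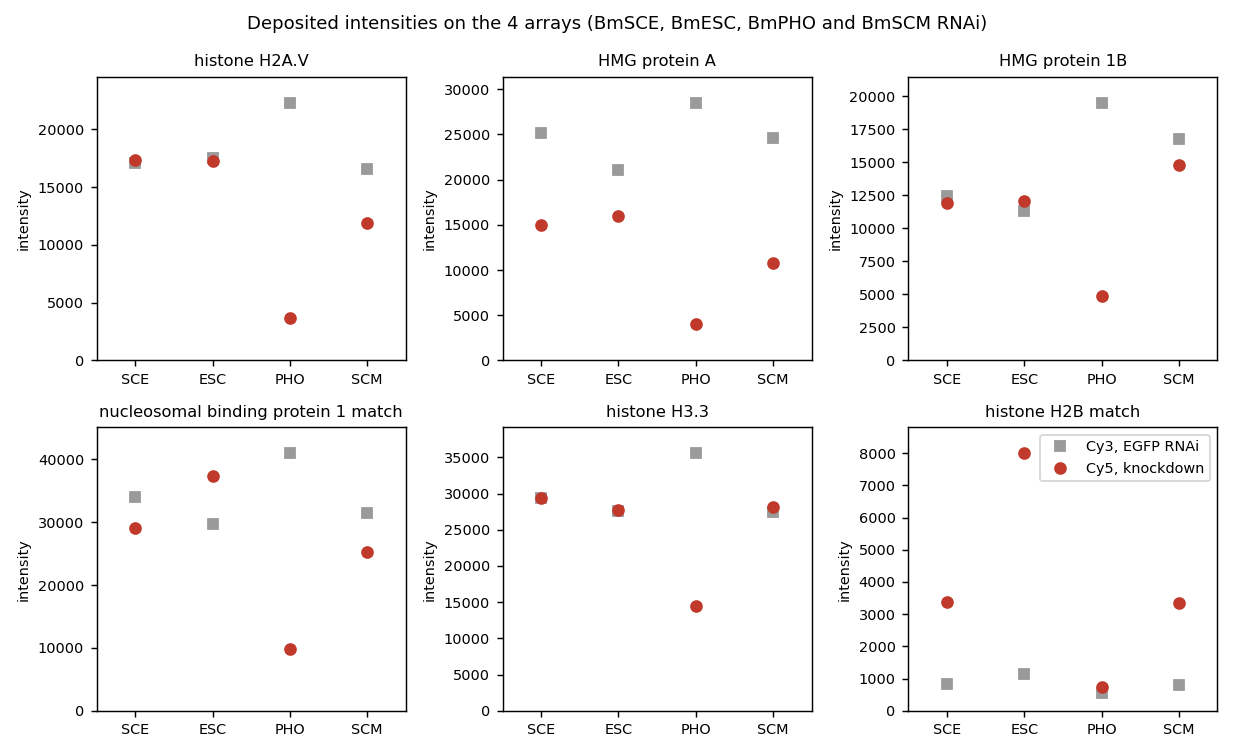
Deposited intensities (vertical axes, linear and starting at 0) of 6 probes of chromatin proteins on the 4 arrays (horizontal axes), with the knockdown in red circles and EGFP RNAi in gray squares, 1 spot each. For H2A.V the knockdown channel stood at 3659 in BmPHO RNAi and at 11872 to 17322 in the other knockdowns, and for histone H2B at 738 and at 3347 to 7998.

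A small set of named genes, in chromatin and beyond it, lay clearly below the other knockdowns. It was sought among 4130 named probes with both channels at least 400 on all 4 arrays. Of these, 16 (0.387%) lay more than 1 log2 unit below the lowest of the other arrays, on 15 different print blocks. The 16 include the probes described above of H2A.V, HMGA, HMG 1B (sw06244), histone H2B and nucleosomal binding protein 1. The genes that follow are others of the 16. A match to a Sarcophaga 120-kDa protein (sw12920) had 809 against 4366 in EGFP RNAi and gave -2.50, beside 0.10, 0.55 and 0.21 in the other knockdowns. Monocarboxylate transporter 2 (sw03799, a cow match), a carrier of lactate and pyruvate, gave -1.82, beside -0.05, -0.15 and 0.06. A tetraspanin (sw06554), of a family of membrane organizers, gave -1.89, beside -0.24, 0.45 and -0.31. A POP1D match (sw22212) gave -2.07, beside 0.21, -0.08 and -0.52. The Drosophila gene match CG2944 (sw10917) gave -2.22, beside -0.69, -0.18 and -0.84. All 5 of these genes lay within 2.0-fold of EGFP RNAi in every other knockdown.

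Lacunin, an extracellular matrix protein of moth epithelia, showed the same direction in several probes. The probe sw22875 had 5064 against 19233 and gave -1.88, beside -0.08, -0.79 and -0.73 in the other knockdowns. The probe sw21880 gave -1.78, beside -0.09, -0.84 and -0.80. Chosen after their values were seen, sw22873 gave -1.76 and laminin A chain (sw16006), a basement membrane protein, gave -1.05, beside 0.51, 0.08 and -0.32. A probe also matched to lacunin (sw20951), with 629 against 259, rose by 1.05. Of 37 measured probes for cell adhesion and matrix, 5 fell (13.5%, beside 7.84% of all probes) and 1 rose (2.7%, beside 11.8%), with a median of 0.07.

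Also chosen after their values were seen, 3 genes of other roles lay below every other knockdown. Profilin (sw12681), which feeds actin monomers to growing filaments, had 8314 against 23968 and gave -1.47, beside -0.46, -0.46 and -0.40. A Y-box protein (sw03949), which binds RNA and DNA, gave -0.89, beside 0.18, 0.60 and 0.59. A microsomal glutathione transferase (sw13395) gave -1.34, beside 0.05, -0.11 and -0.47. The first and the third of these fell past 2.0-fold, and the Y-box protein lay within it.

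Fewer genes lay as far above the other knockdowns. Of the same 4130 probes, 3 (0.0726%) lay more than 1 log2 unit above the highest of the other arrays. The Drosophila match CG3790 (sw12536) had 2078 against 671 and gave 1.51, beside -0.48, 0.16 and -0.18 in the other knockdowns. Casein kinase I alpha (sw17929), a kinase of Wnt and Hedgehog signaling, had 4008 against 904 and gave 2.08, beside 0.29, 0.90 and 1.02. A further probe for this kinase (sw10793), chosen after its value was seen, had 1731 against 559 and gave 1.49, beside 0.61, 0.71 and 0.45, and both lay above the other knockdowns. A dim probe matched to the honeybee gene of this kinase (sw00366), with 410 against 350, gave 0.00, beside 0.05, -0.02 and 0.11, and so did not. Phosphoglucomutase 2 (sw17679), which links glycogen to glycolysis, gave 0.72, beside -0.44, -0.76 and -0.45.

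The next genes by this distance included the translation factor eIF3-S9 (sw05448), a subunit of the complex that brings ribosomes to messenger RNA. It had 10136 against 3721 and gave 1.47, beside -0.27, 0.50 and 0.09. A brighter probe of the same name (sw11924), with 31293 against 17038, gave 0.95, beside 0.49, 0.54 and 0.59, within 2.0-fold. Of the others, a match to jun D (sw16467), a bZIP activator, gave 0.89, beside -0.48, -0.88 and 0.05. Cullin 1 (sw00609), the scaffold of an SCF ubiquitin ligase, gave 0.90, beside 0.03, 0.05 and -0.01. WD-repeat protein 3 (sw08201) gave 0.59 and TRAP1 (sw08767), the mitochondrial Hsp90, gave 0.52, and both lay below 0 in every other knockdown. The B56 subunit of protein phosphatase 2A (sw10680) gave -0.18 in BmPHO RNAi and -1.23, -1.27 and -1.14 in the others, so it fell past 2.0-fold in the other 3 knockdowns and not in that of BmPHO. Of these 6 genes only eIF3-S9 passed 2.0-fold in BmPHO RNAi.

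**Figure D3:**
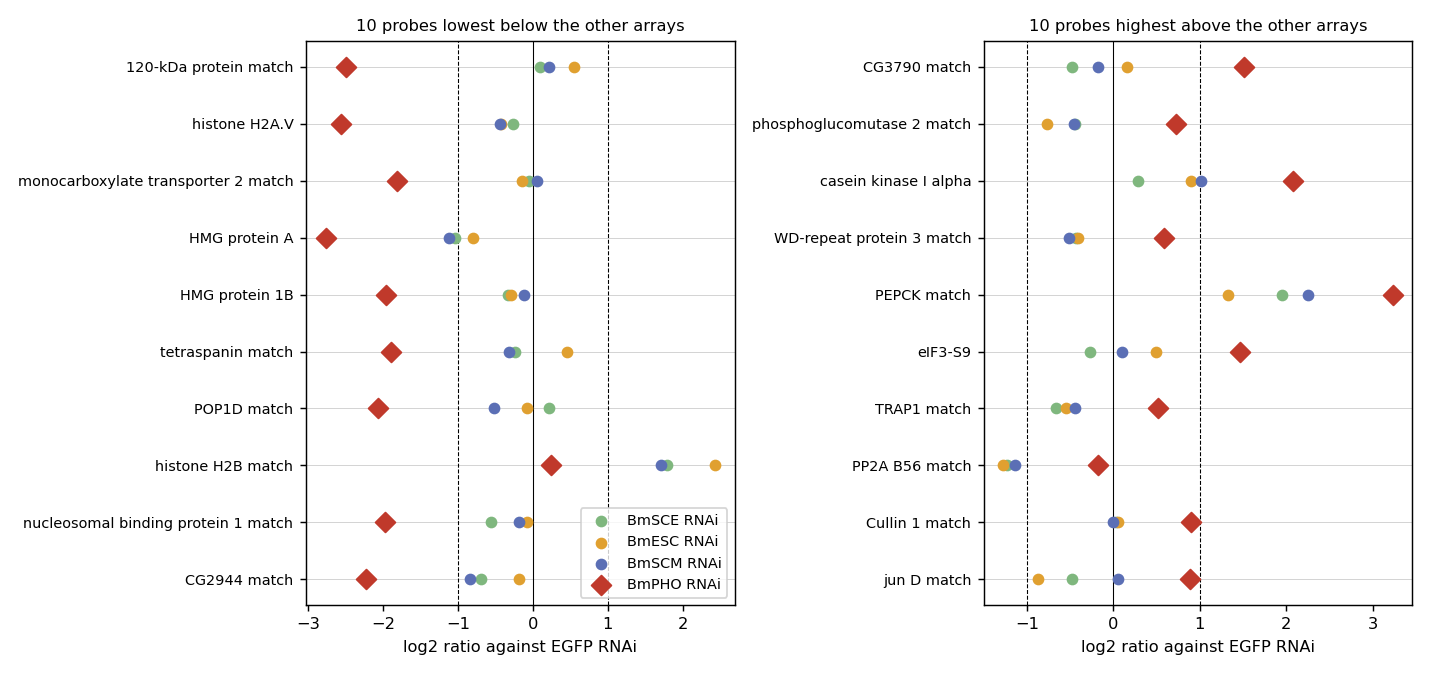
Log2 ratio against EGFP RNAi (horizontal axes) of the 10 named probes farthest below (left) and the 10 farthest above (right) the other 3 arrays, with BmPHO RNAi as red diamonds and the other knockdowns as circles, 1 array each. H2A.V lay at -2.57 beside -0.44 to -0.27, and casein kinase I alpha at 2.08 beside 0.29 to 1.02.

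The largest named rises with both channels at least 400 were led by a mobile element. The probe sw22765, a match to a rice Ty1-copia element, had 17077 in BmPHO RNAi and 807 in EGFP RNAi, a rise of 4.40 on the log2 scale. Other large rises, of the matches to a Sarcophaga 210kDa protein (sw22447, 6194 against 528), to Drosophila cytoplasmic protein 89BC (sw12041, 8803 against 817) and to a GTP binding protein (sw21987, 13552 against 1628), were of 3.48, 3.40 and 3.07. Cytoplasmic protein 89BC gave -0.12, 0.53 and 2.69 in the other knockdowns. The 210kDa match gave 0.61, -1.01 and 3.14 in the same order. Both were thus high in BmPHO and BmSCM RNAi and not in BmSCE or BmESC RNAi.

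The largest named falls, besides HMGA, H2A.V and the 120-kDa match, were of mixed function. A takeout-like protein (sw13451), of a family that carries small lipophilic molecules, had 427 against 3031 and gave -2.95, beside -1.70, -0.44 and -3.24 in the other knockdowns. The small subunit of replication protein A (sw08359), which coats single-stranded DNA, had 967 against 4538 and gave -2.29. The actin and small GTPase scaffold IQGAP1 (sw11962) gave -2.19, an AAA family ATPase (sw14545) -2.16, a match to a viral A-type inclusion protein (sw17642) -2.15 and the ubiquitin-conjugating enzyme E2 J1 (sw12664) -2.10. IQGAP1, the viral A-type match and the small subunit of replication protein A also fell in BmESC RNAi, to -1.90, -2.12 and -2.12. They fell past 2.0-fold in BmSCM RNAi too, to -1.03, -1.25 and -1.75, and the first 2 also in BmSCE RNAi, to -1.04 and -1.14.

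Groups of genes for growth and division had medians below 0. DNA replication and repair had 9 of 70 measured probes fallen (12.9%, beside 7.84% of all probes) and 1 risen (1.43%, beside 11.8%), with a median of -0.43. The small subunit of replication protein A led it at -2.29. Named after their values were seen, probes of its large subunit gave -1.15 (sw16814) and -0.90 (sw02004), and the middle subunit (sw18139) gave -0.75. The p17 subunit of DNA polymerase epsilon (sw07462), the leading-strand polymerase, had 747 against 2673 and gave -1.94. The small subunit of ribonucleotide reductase (sw04795, a match to a moth baculovirus homolog), the enzyme that makes deoxynucleotides, had 1721 against 4194 and gave -1.32. Its large subunit (sw16645) and topoisomerase II (sw08146), both named after their values were seen, gave -1.30 and -1.27. Further probes of both names did not fall, a ribonucleotide reductase M1 match (sw17283) giving 0.74 with 940 against 496 and a topoisomerase II probe (sw20885) 0.23 with 557 against 410. The single rise was a match to Entamoeba Rad50 (sw20989), a DNA break sensor, at 1.08. On the 62 probes measured on all 4 arrays, the median was -0.46 in BmPHO RNAi and -0.08, -0.20 and -0.45 in the other knockdowns.

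The list of cyclins, mitosis and spindle genes had 6 of 49 probes fallen (12.2%, beside 7.84% of all probes). It had 3 risen (6.12%, beside 11.8%) and a median of -0.22. Its words also brought in a CDC42 small effector (sw10322), counted among the rises at 1.05, and a mitochondrial ribosome recycling factor (sw09876). This list was not trimmed of them. Aurora kinase C (sw04642, 266 against 806), a mitotic kinase, and cyclin-dependent kinase 2 (sw11737, 207 against 513), which drives entry into S phase, gave -1.81 and -1.55, both with a dim Cy5 channel. Condensin subunit 1 (sw20967), which compacts mitotic chromosomes, had 1798 against 4299 and gave -1.28. Against them, cyclin J, a cyclin of the insect ovary and early embryo, rose in both of its probes, by 1.69 (sw14313, 5934 against 1826) and 1.49 (sw14443, 4807 against 1680). Cdc25 (sw22828), the phosphatase that activates cyclin-dependent kinases, rose by 2.27 with 1568 against 287. Cdc25 and the brighter cyclin J probe were chosen by the study on these same arrays, so their direction is no separate evidence. Neither is among the probes counted in the list, whose highest ratio was the 1.49 of sw14443. Survivin (sw16094), a chromosome passenger and apoptosis inhibitor, gave -1.68 with 544 against 1577. On the 46 list probes measured on all arrays, the list median was -0.16 in BmPHO RNAi and -0.10, -0.02 and -0.31 in the other knockdowns.

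The proteasome was low throughout. All 33 measured probes of the proteasome, the protease that degrades ubiquitin-tagged proteins, had a log2 ratio below 0, from -1.74 to -0.04, and the median was -0.72. Of these 6 fell past 2.0-fold (18.2%) and none rose. The 25 kDa subunit led in both of its probes, with 6294 against 21691 and -1.74 (sw08994) and 6593 against 17227 and -1.34 (sw08993). In BmSCE, BmESC and BmSCM RNAi these probes gave -0.11, -0.33 and -0.59, and 0.20, -0.15 and -0.50. The zeta subunit (sw08226) gave -1.14 here and -1.39 in BmSCM RNAi. On the 32 subunit probes measured on all arrays the medians were -0.75 in BmPHO, -0.44 in BmSCE, -0.65 in BmESC and -0.75 in BmSCM RNAi, so the whole complex was as low in BmSCM RNAi, while the 25 kDa probes were lowest in BmPHO RNAi.

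Of 43 probes found by words of splicing 7 fell (16.3%, beside 7.84% of all probes) and none rose, with a median of -0.32. The lowest of the 7, a Dlg1 splice variant (sw19956) at -1.30, is a scaffold protein and no splicing gene. Without it and the other probes that carry such words for another reason, chosen after values were seen, 6 of 36 fell (16.7%) and the median was -0.33. The core Sm proteins D2 (sw03582, 6474 against 15420) and D3 (sw13455, 637 against 1330), which form the ring of spliceosomal snRNPs, both gave -1.21. Named after its value was seen, the splicing factor SR 7 (sw18570) had 6394 against 14616 and gave -1.15, beside -0.14, -0.10 and -0.66 in the other knockdowns. The list as a whole was not lowest in BmPHO RNAi. On its 43 probes, before trimming, the median was -0.32 in BmPHO RNAi and -0.20, -0.32 and -0.46 in the other knockdowns. The mitochondrial ribosome and respiratory chain had 5 of 92 probes fallen (5.43%) and 1 risen (1.09%), both below the shares of all probes. The median was -0.35, and -0.06, -0.27 and -0.43 in the other knockdowns on the probes measured on all arrays. Cytochrome c oxidase subunits VIIc (sw03132) and Va (sw09955) gave -1.26 and -1.11, and a succinate dehydrogenase probe (sw05999) rose by 1.05. Redox and detoxification genes had 11 of 67 fallen (16.4%) and 5 risen (7.46%), with a median of -0.29. Of these, 5 fallen probes had a Cy5 and 4 risen probes a Cy3 intensity under 400. On the 59 redox probes measured on all arrays, the median was -0.36 in BmPHO RNAi and 0.03, -0.10 and -0.40 in the other knockdowns.

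Cytosolic ribosomal proteins did not follow. Of 90 measured probes 3 rose (3.33%, beside 11.8% of all probes) and 1 fell (1.11%, beside 7.84%), and the median was 0.23. The rises were S9 (sw17543) at 1.23, L3 (sw21955) at 1.19 and L26 (sw19617) at 1.13, and the fall was L27 (sw14128) at -1.32. Translation factors had 4 of 50 risen (8%) and 3 fallen (6%), with a median of 0.23. Elongation factor 2 rose by 1.64 on 1 probe (sw22958, 4739 against 1485) and gave 0.69 on a brighter one (sw21939, 46608 against 30708), beside 0.65, 0.05 and 0.77 there, and initiation factor 1A (sw10552) gave -1.41 with 5441 against 14797. RNA helicases and ribosome biogenesis genes had 5 of 49 risen (10.2%) and 1 fallen (2.04%). Among them were BAP28 (sw13053) at 1.73 and the nucleolar methyltransferase fibrillarin (sw00670) at 1.54.

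Cytoskeleton genes had 19 of 117 measured probes fallen (16.2%, beside 7.84% of all probes), 10 risen (8.55%) and a median of -0.21. The lowest were a match to an axonemal dynein light chain (sw08541) at -2.27, kinesin-like protein 1 (sw09646) at -1.77 and an EB family microtubule end protein (sw22925) at -1.53. The EB probe sw22925 had 4535 against 13378 and gave -1.35, -2.10 and -1.14 in the other knockdowns, so this probe fell in all 4. A further bright probe of the same gene (sw18741), with 5683 against 4444, gave 0.37, beside -0.09, 0.18 and 0.59, and the direction of the gene is therefore not settled. Actin regulators were named after their values were seen. Profilin gave -1.47, an actin-depolymerizing factor (sw04646) -1.13 and actin 6 (sw17388) -1.03. Of the 92 cytoskeleton probes with both channels at least 400, 16 fell and 2 rose, beside 6.58% and 7.59% of all such probes. A Cy3 intensity under 400 was found for 8 of the 10 rises. Small GTPases and vesicle traffic had 10 of 94 risen (10.6%, beside 11.8% of all probes) and 9 fallen (9.57%, beside 7.84%). Of these rises 8 had a Cy3 intensity under 400, among them Rab10 (sw05897, 1595 against 245) at 2.51. With both channels at least 400, 2 of 77 rose and 8 fell, beside 7.59% and 6.58% of all such probes. Their median was -0.36.

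**Figure D4:**
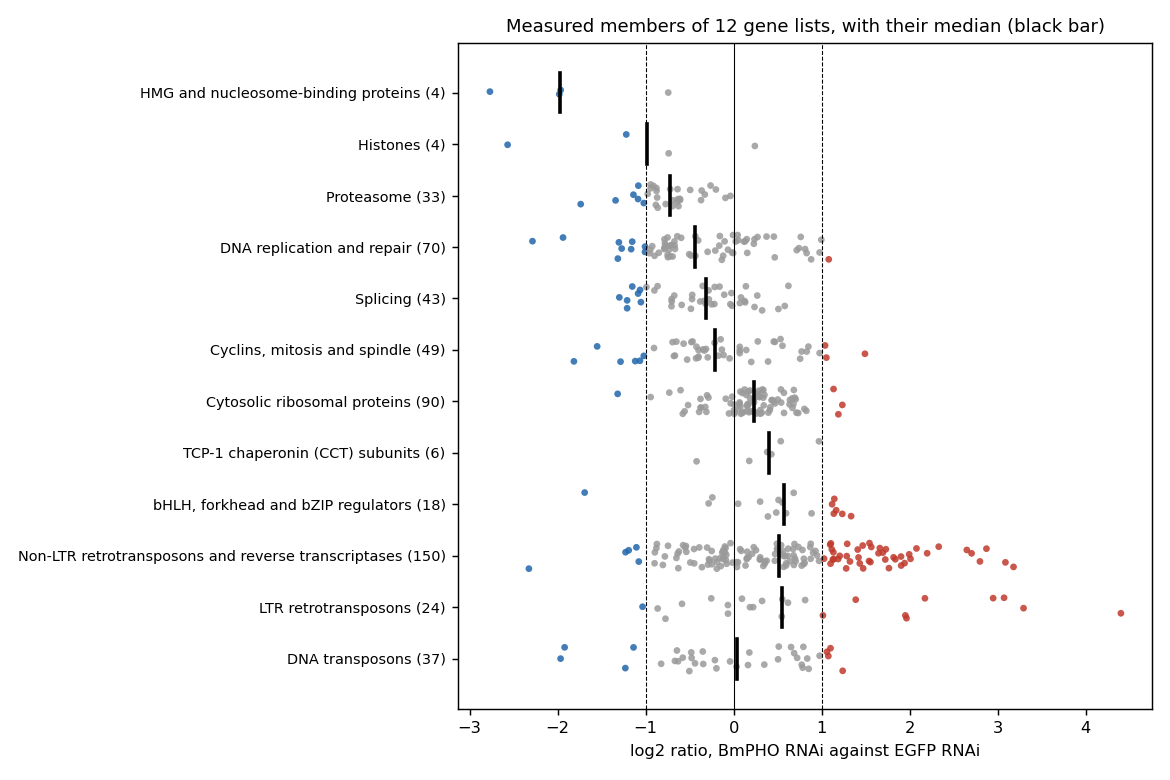
Log2 ratio in BmPHO RNAi against EGFP RNAi (horizontal axis) of each measured probe of 12 gene lists, 1 point per probe, with the number measured in brackets. Red points rose and blue points fell past 2.0-fold, black bars are medians, and all 33 proteasome points lie below 0 while the retrotransposon points reach 4.40.

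Retrotransposons rose in numbers. Of 24 measured probes for LTR retrotransposons, which copy themselves through RNA and resemble retroviruses, 9 rose (37.5%) and 1 fell, with a median of 0.55. Of 150 probes for non-LTR retrotransposons and reverse transcriptases, 45 rose (30%) and 5 fell, with a median of 0.52. DNA transposons, which move without an RNA copy, had 4 of 37 risen and 4 fallen and a median of 0.03. All measured probes rose in 11.8% of cases and fell in 7.84%.

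Single elements showed large ratios on bright spots. The Ty1-copia probe rose by 4.40 and gave -0.19, 1.27 and 4.05 in the other knockdowns. A BEL12 polyprotein match (sw19647) had 8647 against 1013 and rose by 3.07, beside 1.28, 3.05 and 2.53. A reverse transcriptase match (sw20795) had 17509 against 1962 and rose by 3.18, beside 1.40, 1.18 and 3.17. The elements thus differed in which knockdowns they rose in, and each was as high in at least 1 other knockdown as in that of BmPHO to within 0.35 log2 units. A copia-like probe (sw10324) gave -1.03, and a reverse transcriptase probe (sw22039) with 87 against 416 fell by at least 2.33.

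Many of the element probes were dim in EGFP RNAi. Of the 45 risen non-LTR probes 27 had a Cy3 intensity under 400, and of the 9 risen LTR probes 4. With both channels at least 400, 18 of 102 non-LTR probes rose and 2 fell, and 5 of 19 LTR probes rose and 1 fell. Of all such probes on the array 7.59% rose and 6.58% fell. On the probes measured on all arrays, the non-LTR median was 0.30 in BmPHO RNAi and 0.07, 0.15 and 0.50 in the other knockdowns. The LTR median was 0.55, beside 0.03, 0.26 and 0.62. Probes of repeated elements can report more than 1 genomic copy, and element copies were not told apart here.

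The knockdown itself engages the RNA interference machinery in both channels. Of 25 measured probes of this machinery 4 rose (16%, beside 11.8% of all probes) and 2 fell (8%, beside 7.84%). Dicer-2, the enzyme that cuts double-stranded RNA into short interfering RNAs, rose in part of its probes. The probe sw09480 had 3901 against 495 and rose by 2.88, beside 0.74, 1.54 and 2.20 in the other knockdowns. The probe sw09354 had 7690 against 1076 and rose by 2.81, beside 0.57, 0.87 and 2.83. Further dicer-2 probes, chosen after their values were seen, lay within 2.0-fold, sw13008 at 0.92 with 500 against 224 and sw01076 at 0.40 with 755 against 502. Argonaute 2 (sw20403), which carries the short RNAs to their targets and was named after its value was seen, gave 0.88, beside -0.12, 0.12 and -0.10. A mouse match to the SID1 transmembrane family (sw07641), named likewise, rose by 1.07. An argonaute 1 probe (sw09465) with 527 against 84 rose by at least 2.14. A brighter argonaute 1 probe (sw09466), chosen after its value was seen, gave 0.22 with 1035 against 801. Aubergine (sw10899), a Piwi protein of the germline, had 4464 against 9534 and gave -1.07. Its intensity in EGFP RNAi was thus bright in this ovary-derived line. The probe of piwi itself (sw00065), chosen after its value was seen, had 1426 against 724 and went the other way, to 0.84.

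Of 75 heat shock and chaperone probes 5 rose (6.67%) and 5 fell (6.67%), both below the shares of all probes, with a median of -0.19. The constitutive Hsp70 relative Hsc71 rose in both of its probes, by 3.02 (sw12462, 12210 against 1508) and 1.25 (sw09458, 3533 against 1440). Small heat shock protein hsp20.8 (sw03800) rose by 1.69. The lowest were the peptidyl-prolyl isomerases cyclophilin G (sw17651) at -1.68, sw05278 at -1.42 and cyclophilin H (sw12429) at -1.33, while another protein of this activity, FKBP59 (sw07876, chosen after its value was seen), gave 1.00 with 1711 against 785. The CCT chaperonin, which folds actin and tubulin, was a list added after values were seen. None of its 6 probes passed 2.0-fold, its median was 0.40, and on these probes BmSCE, BmESC and BmSCM RNAi gave -0.27, -0.26 and -0.02. The alpha subunit (sw17366) gave 0.97 with 1004 against 452, and a further alpha probe (sw17582), chosen likewise after values were seen, gave 0.18 with 12589 against 11519.

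Polycomb and trithorax genes were measured in part. Of 14 Polycomb probes on the array 7 were measured, 1 rose (14.3%, beside 11.8% of all probes) and none fell, with a median of 0.42. Polyhomeotic (sw17606), a PRC1 subunit, had 1173 against 439 and rose by 1.24, while a further polyhomeotic probe (sw02381) gave 0.16. A match to Sfmbt (sw18870), the known partner of Pleiohomeotic in Drosophila, gave 0.42 with 544 against 350, beside -0.32 and -0.51 in BmSCE and BmESC RNAi, and was not measured in BmSCM RNAi. An mbt domain protein (sw00111) gave 0.86, enhancer of polycomb (sw07595) 0.75, polycomblike (sw16438) -0.34 and extra sex combs (sw12637) -0.33. The trithorax group and chromatin remodellers, which counteract Polycomb silencing or move nucleosomes, had a median of 0.33. Of their 30 measured probes 6 rose (20%, beside 11.8% of all probes) and 2 fell (6.67%, beside 7.84%). The co-repressor Sin3A (sw10609) rose by at least 2.87 with a Cy3 intensity of 74, a jumonji demethylase match (sw08986) by 1.59 and trithorax (sw14974) by 1.52, while dMi-2 (sw07456) gave -1.36. Of the 6 rises 4 had a Cy3 intensity under 400.

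Hox genes moved little. Of 59 probes for Hox and other homeobox genes 10 were measured. Of these 2 rose (20%, beside 11.8% of all probes) and none fell, and the median was 0.09. Abdominal-B, the Hox gene of the posterior abdomen, rose by 1.18 on its brighter probe (sw05758, 11527 against 5195) and gave 0.31 on a further one that was chosen after its value was seen (sw08418, 5363 against 4355). A ladybird match (sw12515) rose by 1.07, beside -0.07, -0.14 and 1.12 in the other knockdowns.

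Other transcription factors gave larger ratios. The bHLH, forkhead and bZIP regulators had 6 of 18 probes risen (33.3%, beside 11.8% of all probes) and 1 fallen, with a median of 0.58. With both channels at least 400, 4 of 14 rose, beside 7.59% of all such probes, FoxO and FoxQ2 having a Cy3 intensity under 400. FoxO (sw09818), the effector of low insulin signaling, rose by 1.33 with 517 against 173, FoxQ2 (sw02083) by 1.23 and the chorion b-ZIP factor (sw18575), with 12785 against 5850, by 1.16. Forkhead box K1 (sw15291) gave -1.69. FoxO gave 1.35, 1.55 and 1.37 in the other knockdowns, so it rose in all 4 knockdowns. Zinc finger proteins had 15 of 124 risen (12.1%) and 8 fallen (6.45%), with a median of 0.04, close to the values of all probes. Among them zinc finger protein 236 (sw03476) rose by 2.65 and zinc finger protein 709 (sw18675) gave -1.80, beside -0.03, 0.47 and -0.19.

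Genes of the ecdysone response, the steroid program of moulting, divided. Of 16 measured probes 3 rose (18.8%, beside 11.8% of all probes) and 3 fell (18.8%, beside 7.84%). The median of 0.53 did not keep its sign without the brightness flag (-0.11). The ecdysone receptor (sw18055) had 1431 against 441 and rose by 1.53, beside 0.24, 0.12 and 1.30 in the other knockdowns. E75 (sw11067), an early target of the receptor, had 4178 against 1363 and rose by 1.57, beside 1.50, 1.70 and 1.07. The last enzyme of hormone synthesis, ecdysone 20-hydroxylase (sw16581), had 771 against 2067 and gave -1.53. The receptor and the enzyme of hormone synthesis thus moved in opposite directions, and both did so in BmSCM RNAi as well, where the enzyme gave -1.57.

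The fasting response held some of the largest rises. Of 14 measured probes for insulin, sugar and fasting 5 rose (35.7%, beside 11.8% of all probes) and none fell, although the median was -0.05. Of the 5 rises 3 had a Cy3 intensity under 400, and with both channels at least 400, 2 of 9 rose, beside 7.59% of all such probes. Phosphoenolpyruvate carboxykinase (sw19873), the entry enzyme of gluconeogenesis, had 34257 in BmPHO RNAi and 3758 in EGFP RNAi and rose by 3.24, beside 1.95, 1.33 and 2.25 in the other knockdowns. An insulin-related peptide binding protein, which in insects can sequester insulin-like peptides, rose in both probes. The probe sw06810 had 3776 against 174 and rose by 4.28, beside 1.48, 3.81 and 2.86. The probe sw08270 had 1381 against 329 and rose by 1.89, beside 0.50, 1.24 and 0.56. PEPCK and both binding protein probes were highest in BmPHO RNAi, and PEPCK and the brighter binding protein probe had been picked by the study on the same arrays.

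Amino acid response genes had 4 of 10 probes risen (40%, beside 11.8% of all probes) and 1 fallen (10%, beside 7.84%), with a median of 0.49. Asparagine synthetase (sw11016) had 16584 against 6107 and rose by 1.48, glutamine synthetase (sw03153) rose by 1.14 and a cationic amino acid transporter (sw02976) by 1.13. In the other knockdowns asparagine synthetase gave 0.86, 2.02 and 1.49, the transporter 0.26, 1.35 and 0.73, and glutamine synthetase 0.38, -0.40 and 0.50. Carbohydrate and fatty acid metabolism had 10 of 78 risen (12.8%) and 4 fallen (5.13%), with a median of -0.10. In the pentose phosphate pathway, which makes ribose and NADPH, transketolase (sw00306) rose by 1.67 and ribose 5-phosphate isomerase (sw16297) gave -1.69. Acyl-CoA binding protein (sw06932), a carrier of fatty acyl groups, had 5292 against 12410 and gave -1.20. Membrane transporters had 8 of 53 risen (15.1%) and 6 fallen (11.3%), led by the mitochondrial carrier SLC25A36 (sw03327) at 1.73.

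The remaining genes named by the study rose as well, which follows from their choice on these arrays. A cytochrome b5 match (sw09668) had 4771 against 321 and rose by 3.78. The others were the matches sw13074 at 2.66, CG13175 (sw16070) at 2.31, isovaleryl-CoA dehydrogenase (sw18275) at 2.29, UHRF1 (sw06196) at 2.24 or more, a sugar transporter (sw00332) at 1.90, the exonuclease GOR (sw06274) at 1.79, USP10 (sw15458) at 1.68, UDP-galactose epimerase (sw12918) at 1.63 and a rhomboid protease (sw14054) at 1.48. GAPDH (sw03207), the reference gene of the RT-PCR assays, gave 0.12 with 5801 against 5416.

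Among signaling genes, 8 of 69 protein kinase and phosphatase probes rose (11.6%, beside 11.8% of all probes) and 1 fell (1.45%, beside 7.84%). Their median was 0.18. Most kinase rises were on dim spots, 6 of the 8 having a Cy3 intensity under 400, and casein kinase I alpha accounted for the other 2. Developmental signaling had 6 of 34 risen (17.6%) and 1 fallen (2.94%), with Notch-like probes on both sides, sw20978 at 1.50, sw15495 at 1.42 and sw03837 at -1.38. The ubiquitin system had 6 of 69 risen (8.7%) and 4 fallen (5.8%), both below the shares of all probes. The small modifier SMT3 (sw09045), with 6406 against 16453, gave -1.32. RNA polymerase and general transcription genes had 1 of 30 risen (3.33%) and 3 fallen (10%). Of genes for apoptosis and autophagy, 3 of 32 rose (9.38%) and 3 fell (9.38%). Probes matched to the autophagy enzyme Atg7 gave -1.48 (sw17053), -1.24 (sw15472) and, within 2.0-fold and chosen after its value was seen, -0.67 (sw15473).

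Genes typical of other tissues were mostly too dim to be read. Measured were 16 of 130 cuticle probes, 5 of 40 for chorion and yolk, 3 of 15 for silk gland, 15 of 79 for fat body and haemolymph, 23 of 83 for immune genes, 18 of 57 for muscle, 32 of 248 for neural receptors and ion channels, and 30 of 147 for serine proteases and serpins. Of the 32 neural probes none rose or fell. Of the 15 fat body and haemolymph probes 5 fell (33.3%, beside 7.84% of all probes) and 1 rose (6.67%, beside 11.8%). The lipid carrier apolipophorin III (sw09945, named after its value was seen) gave -1.24 and the storage protein arylphorin (sw06703) 1.73. Of the falls 3 had a Cy5 and the rise had a Cy3 intensity under 400. With both channels at least 400, 2 of 11 fell and none rose, beside 6.58% and 7.59% of all such probes. Of the 30 probes for serine proteases and serpins 6 rose (20%, beside 11.8% of all probes) and 4 fell (13.3%, beside 7.84%). Of these rises 4 had a Cy3 and of the falls 1 had a Cy5 intensity under 400. With both channels at least 400, 2 of 21 rose and 3 fell, beside 7.59% and 6.58% of all such probes. Their median was -0.33. Midgut chymotrypsin (sw19976) gave 2.40 and serpin-2 (sw18472) -1.43. Serpin-2 gave -0.97, -1.28 and -1.62 in the other knockdowns, so its lower level was shared.

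Several genes described above had further probes of the same name, given here after their values were seen. Transketolase gave 0.55 on a brighter probe (sw11197, 16828 against 11911), the ribosomal proteins L26 and L27 gave 0.43 (sw10299) and 0.35 (sw14386), BAP28 gave 0.58 (sw08539), hsp20.8 gave 0.25 (sw18898) and Sin3A gave -0.49 (sw15731). All of these lay within 2.0-fold, and for L27 and Sin3A the sign was the opposite. Laminin A chain gave -0.02 (sw01258), acyl-CoA binding protein -1.05 (sw00813), -0.49 (sw09826) and 0.40 (sw13256), ecdysone 20-hydroxylase -0.74 (sw01790), a further lacunin probe 0.74 (sw04702), and serpin-2 -1.15 (sw00013), -1.07 (sw10010), 0.13 (sw17678) and 0.33 (sw03179). The 210kDa match rose on its further probe (sw18355, 2996 against 259), by 3.38, and Cullin 1 gave 0.91 (sw16308), as on the probe above. Zinc finger protein 236 gave 0.40 on a further probe (sw20362), and probes of the viral A-type match gave -1.31 (sw17813) and 1.90 (sw11447). Probes of 1 name may report different genes of a family, so these values were not averaged.

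Over all lists with at least 10 measured probes, 21 medians lay above 0 and 17 below. The lowest were those of the proteasome, of DNA replication and repair, and of the mitochondrial ribosome and respiratory chain. The highest were those of bHLH, forkhead and bZIP regulators, LTR retrotransposons and the ecdysone response. The annotation terms deposited with the array gave a like order on the same values, so they are no separate evidence. Among terms with at least 10 measured probes, proteasome endopeptidase activity had the lowest median (-0.94, 5 of 11 fallen), the actin cytoskeleton had -0.71 (4 of 10 fallen) and RNA-dependent DNA replication had the highest (0.62, 15 of 35 risen). Transcription factor activity had 0.33, with 10 of 54 risen and 3 fallen. Of all measured probes 11.8% rose and 7.84% fell.

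**Figure D5:**
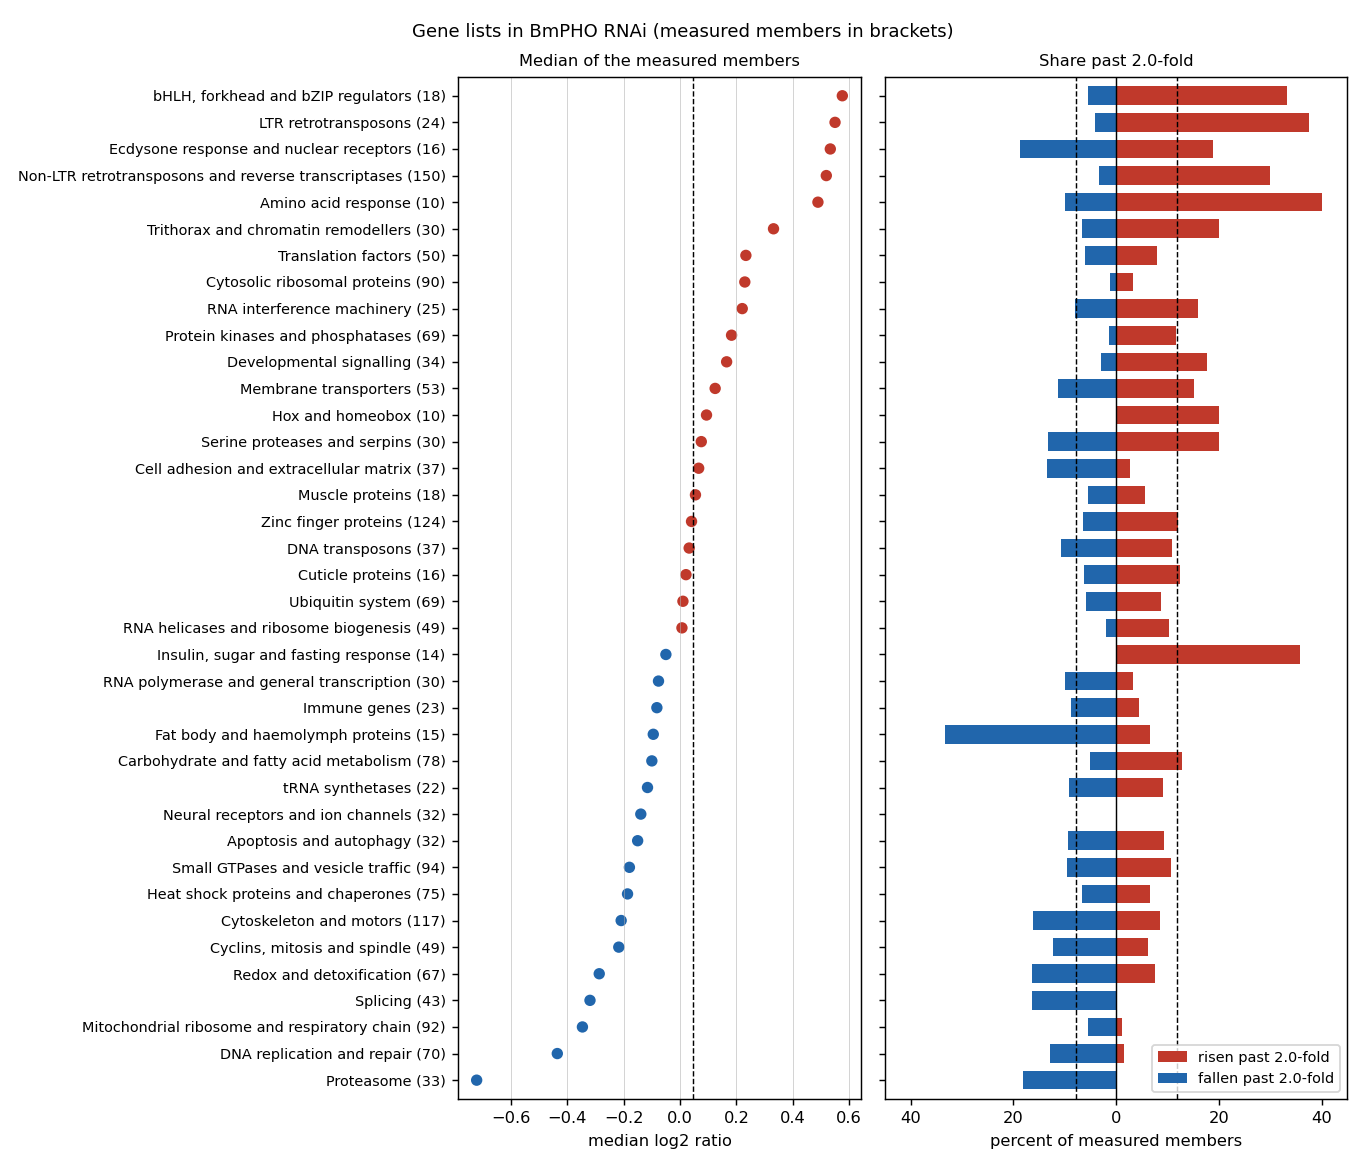
Gene lists with at least 10 measured probes in BmPHO RNAi, ordered by their median log2 ratio (left, horizontal axis), with the percent of members risen (red) and fallen (blue) past 2.0-fold (right). Dashed lines give the same for all 7434 measured probes (median 0.05, 11.8% risen, 7.84% fallen), and the proteasome lies lowest at -0.72.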

How the data were processed

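RNA of BmPHO RNAi and of EGFP RNAi cells was compared on 1 two-color array of 70-mer oligonucleotides (24288 spots in 48 print blocks). The intensity columns were deposited by the authors with background already subtracted. The ratio column deposited by the authors is Cy5 over Cy3 after a normalization whose method the sources used here do not give, and the series table holds its log2 as deposited. As checked on all spots, the deposited flag keeps spots of which at least 1 channel reaches 400.

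Log2 ratios were computed anew from intensities set to at least 100 and normalized by loess (span 0.3, all gene probes) with limma 3.58.1 in R 4.3.3. Counts used Python 3.11.15 with numpy 2.4.6 and pandas 2.3.3. The threshold was 2.0-fold, as in the study. Where a channel lies under 100, the ratio is a bound. The normalization was tested on simulated data. Precision is limited by the number of arrays.

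The 44 gene lists were found by words in the annotation. The members and lists were chosen with earlier results of these data known, and lists were trimmed, and the HMG and CCT lists added, after values were seen. Named genes were the 10 largest rises and falls with both channels at least 400, the 10 probes farthest above and below the other arrays, the genes of the study, Polycomb probes, and up to 3 risen and 3 fallen members of each list. Others named are marked. A name resting on a protein of another species is a match and may be approximate. All arrays share the EGFP RNAi reference, so their values are given side by side, with no test.

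Alternatives were median centring, loess within print blocks, the authors' ratio, floors of 50 and 200, loess fitted on bright spots, other filters, and thresholds of 1.5-fold and 3-fold.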

Additional observations from a re-analysis of the deposited data

Results flagged for a closer look

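A few named probes passed 2.0-fold in opposite directions in BmPHO RNAi and in another knockdown. These differences were not tested, since each value comes from 1 array. A match to 3-oxo-5-beta-steroid 4-dehydrogenase (sw07418) gave a log2 ratio of -1.81 in BmPHO RNAi and 1.40 in BmSCE RNAi. An ecdysteroid-inducible angiotensin-converting enzyme-related protein (sw14172) gave -1.15 in BmPHO and 1.54 in BmSCE RNAi. Egg specific protein (sw14102), a yolk protein, gave -2.14 in BmPHO and 1.09 in BmESC RNAi. A reverse transcriptase (sw20840) gave -1.23 in BmPHO and 1.19 in BmESC RNAi. In the other direction, annulin (sw20237) gave 1.60 in BmPHO and -1.34 in BmESC RNAi, and the 210kDa match (sw22447) gave 3.48 in BmPHO and -1.01 in BmESC RNAi.

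Spots outside the gene probes also carried signal. The yeast spike-in controls gave log2 ratios on the BmPHO array of 3.38 for Y1, 4.86 for Y2, 4.03 for Y3, 3.88 for Y4, 5.39 for Y5, 1.96 for Y6, 5.07 for Y7 and 3.86 for Y8. Of 382 blank spots 30 (7.85%) passed the brightness flag, against 71 for BmSCE, 100 for BmESC and 26 for BmSCM RNAi.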

How the results depend on the processing

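The counts moved with the filter and the threshold more than with the normalization. Under median centring, loess within print blocks, the authors' ratio, floors of 50 and 200, loess fitted on bright spots or no flag filter, 720 to 1118 probes rose (main count 879) and 506 to 807 fell (main count 583). With both channels at least 400, 449 rose, and on probes measured on all 4 arrays 585 rose. At 1.5-fold 1734 rose and 1445 fell, and at 3-fold 318 rose and 132 fell. Rises made up 52.7% to 66.3% of the called probes (60.1% in the main setting). Of 38 list medians 21 lay above 0, and 13 did with both channels at least 400. The ecdysone list median of 0.53 turned to -0.11 with no flag filter, and the cause was not tested. The 16 genes more than 1 log2 unit below the other arrays became 13 to 19. The 3 above became 7 with loess within print blocks and 5 with the authors' ratio or a floor of 50. These counts, and the distance between probes of 1 gene (0.52, and 0.34 with loess fitted on bright spots), were run under alternatives chosen after seeing the data. Of 195 named risen or fallen genes, 183 to 195 stayed past 2.0-fold under each of 6 normalizations and none turned in direction. Many of them were named for the size of their ratios on the same spots. Their count therefore does not speak for the other risen and fallen probes. No paired analysis was possible because each group has 1 array, and for the same reason no replicate could be left out.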
